A study of Homo sapiens with 8 samples.

Results

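Synaptic vesicle release and synapse-organizer genes were followed in D283-OMO cells, a medulloblastoma line in which MYC can be inhibited. The 42 genes were chosen by symbol as synaptotagmins, vesicle proteins, SNAREs, complexins, RAB3 and active zone proteins, neurexins, neuroligins and postsynaptic scaffolds. All 42 matched an Ensembl identifier among the 60668 gene rows of the RNA-Seq tables, and 36 of them were among the 15222 genes expressed highly enough to be tested, that is above 1 CPM (reads of the gene scaled to a fixed number of reads per library) in 4 libraries or more. The remaining 6 genes, SYT5, SYT7, SYN3, CPLX4, SHANK1 and SHANK2, were below this level and are described by their counts.

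At a chemical synapse, neurotransmitter is packed into vesicles that dock at the active zone of the presynaptic membrane. RIM, Munc13, Bassoon and Piccolo organize this zone and prime the vesicles, RAB3 proteins link the vesicles to it, and the SNARE proteins of vesicle and plasma membrane zip together to drive fusion. Complexins clamp and assist the SNAREs, and synaptotagmins sense the calcium that triggers release. Across the cleft, neurexins of the presynaptic side bind neuroligins of the postsynaptic side, where PSD-95 family proteins, Homer and SHANK hold receptors in place. Group 3 medulloblastoma is known for its photoreceptor genes, and photoreceptors signal through ribbon synapses that use their own complexins.

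D283-OMO cells derive from the D283 MED line, were transduced with a lentivirus carrying a DOX-inducible, FLAG-tagged OMOMYC, and were sequenced as 4 untreated (OMO) and 4 DOX-treated (OMO+DOX, 72 h) biological replicates of polyA+ RNA. OMOMYC is a dominant-negative mini-protein made from MYC that competes with it for its partner MAX and for DNA. Every library carries the transgene and none comes from D283 MED cells without it that were given DOX, so effects of OMOMYC and of DOX itself cannot be told apart. All values come from 1 cell line, and in bulk RNA fewer cells expressing a gene and less RNA per cell cannot be told apart.

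Total counts ranged from 46592947 to 54020506 in untreated and from 38390696 to 49249167 in DOX-treated libraries, so the floor of 3 counts lay between 0.0581 and 0.0748 CPM, which covers counting error only. The MYC targets CAD and NCL fell from 162 ± 4.07 to 116 ± 4.74 CPM and from 1554 ± 58.6 to 1145 ± 5.73 CPM (SD, n = 4), whereas reads of MYC, which cannot be told apart from those of OMOMYC, stood at 939 ± 75.6 and 1123 ± 56.8 CPM. All 7 Group 3 markers listed (OTX2, MYC, NPR3, GABRA5, CRX, NRL and IMPG2) were expressed, with a summed level of 3248 to 3315 CPM in untreated and 1761 to 1902 CPM in DOX-treated libraries. Of these, 6 fell and 1, MYC, rose at an FDR below 0.05. The sum includes the reads of MYC, which cannot be told apart from those of OMOMYC. Of 9 neuronal markers 7 were tested, 5 rose (MAP2, TUBB3, ELAVL3, NEFL and NEFM) and 1 fell (DCX), and their summed level went from 327 to 340 CPM up to 672 to 711 CPM, with ELAVL4 at 0 in every library. Microglial markers summed to at most 1.15 CPM. The Group 3 and neuronal markers changed in the same comparison as the synaptic genes. The part of these markers in the results was not tested. Untreated replicate 3 stood apart in long genes, as described at the end.

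The rises past the thresholds below were those of 3 adhesion molecules of the synapse and 1 active zone gene, and the release machinery held changes in both directions. Transcripts of NRXN2, NRXN3, NLGN1 and RIMS1 rose and that of CPLX3 fell at an FDR (edgeR's quasi-likelihood test, Benjamini-Hochberg adjustment over all genes tested) below 0.001 together with a log2FC beyond 2 in either direction, which served as the thresholds for differential expression. These 5 of 36 genes compare with 7.12% of all genes tested, the 4 that rose with 4.38% and the 1 that fell with 2.75%. RIMS1 and NRXN2 were below 1 CPM in every untreated library and entered the test through the DOX-treated libraries alone, so for them a rise was a condition of being counted. At an FDR below 0.05 with no fold threshold, 30 of the 36 genes differed, against 76.6% of all genes, of which 18 were higher (38.5% of all genes) and 12 lower (38.1%) after DOX. The libraries of the groups did not overlap in 31 of the 36 genes, against 71.7% of all genes. The median log2FC was 0.25 over the 36 genes and 0.01 over all genes, and the median absolute log2FC was 0.78 and 0.43.

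**Figure D1:**
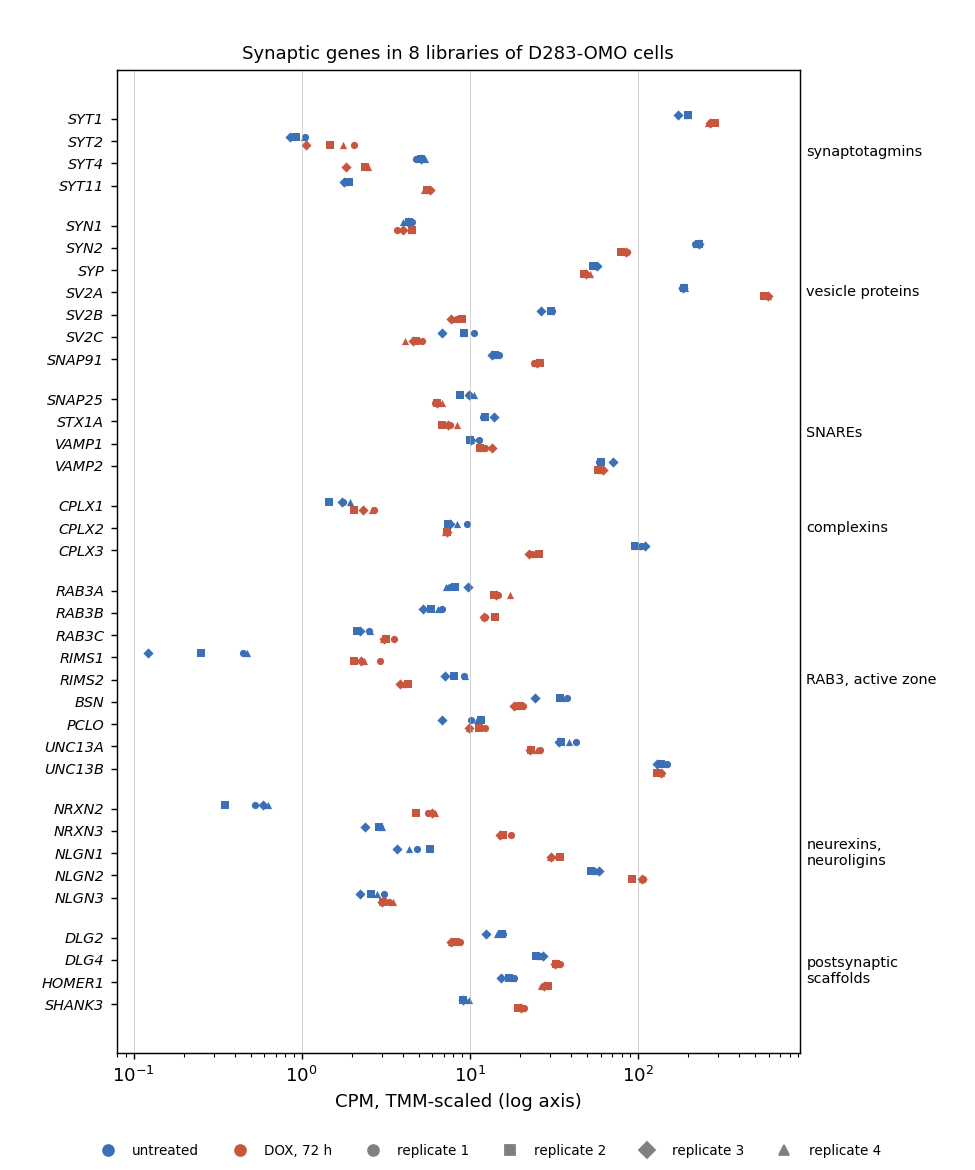
TMM-scaled CPM (log axis) of the 36 tested genes in each library, blue for untreated and red for DOX-treated, with a marker shape for each replicate number. Red and blue points are farthest apart for NRXN2, NRXN3, NLGN1 and RIMS1, with red on the right, and for CPLX3, with red on the left.

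Neurexins and neuroligins, the adhesion pair that spans the synaptic cleft, held 3 of the 4 differentially expressed genes that rose. Of the 5 genes of these families followed, 3 passed the thresholds for differential expression, NLGN2 rose by less, and NLGN3 was not called. Their median log2FC was 2.51.

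NRXN2 (ENSG00000110076.18), a presynaptic neurexin, lies on the minus strand of chromosome 11 of GRCh38, from 64606174 to 64723188. It measured 0.531, 0.348, 0.590 and 0.627 CPM in untreated replicates 1 to 4 and 5.64, 4.76, 5.92 and 6.21 CPM in DOX-treated replicates. The lowest DOX-treated library was far above the highest untreated one, and the untreated libraries held between 18 and 29 counts each. The mean level was 10.7 times that of untreated cells, with a log2FC of 3.43 (SE 0.16, FDR 2.78e-09 in edgeR's quasi-likelihood test).

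NRXN3 (ENSG00000021645.18), another neurexin, spans 78170373 to 79868290 on the plus strand of chromosome 14. It gave 2.92, 2.90, 2.38 and 3.003 CPM in the untreated and 17.6, 15.8, 15.03 and 15.4 CPM in the DOX-treated libraries. Both groups were tight and did not overlap, with untreated replicate 3 the lowest of its group. Its log2FC was 2.51 (SE 0.09, FDR 2.75e-10 in edgeR's quasi-likelihood test).

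NLGN1 (ENSG00000169760.17), the neuroligin found mainly at excitatory synapses, lies on the plus strand of chromosome 3 from 173396284 to 174286644. Untreated libraries held 4.86, 5.77, 3.68 and 4.33 CPM and DOX-treated libraries 33.3, 34.2, 30.4 and 30.1 CPM. The DOX-treated values lay within a narrow band that was well clear of the untreated ones. The log2FC was 2.78 (SE 0.11, FDR 7.00e-10 in edgeR's quasi-likelihood test), a mean level 6.87 times higher.

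NLGN2, the neuroligin of inhibitory synapses, was the most abundant of the family and went from 55.3 ± 2.37 to 103 ± 7.21 CPM (log2FC 0.89). NLGN3, which occurs at both kinds of synapse, measured 2.68 ± 0.365 and 3.21 ± 0.230 CPM, with overlapping groups (log2FC 0.26, SE 0.12, FDR 0.058 in edgeR's quasi-likelihood test). Per kilobase of exon, the summed level of these 3 neuroligins went from 11.1 to 22.5 CPM per kb. NLGN1 made up 4.16 ± 0.902% of it in untreated and 14.1 ± 1.55% in DOX-treated cells, and NLGN2 89.8 ± 1.53% and 82.3 ± 1.62%. NLGN2 thus remained the main transcript of the 3 in both conditions.

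**Figure D2:**
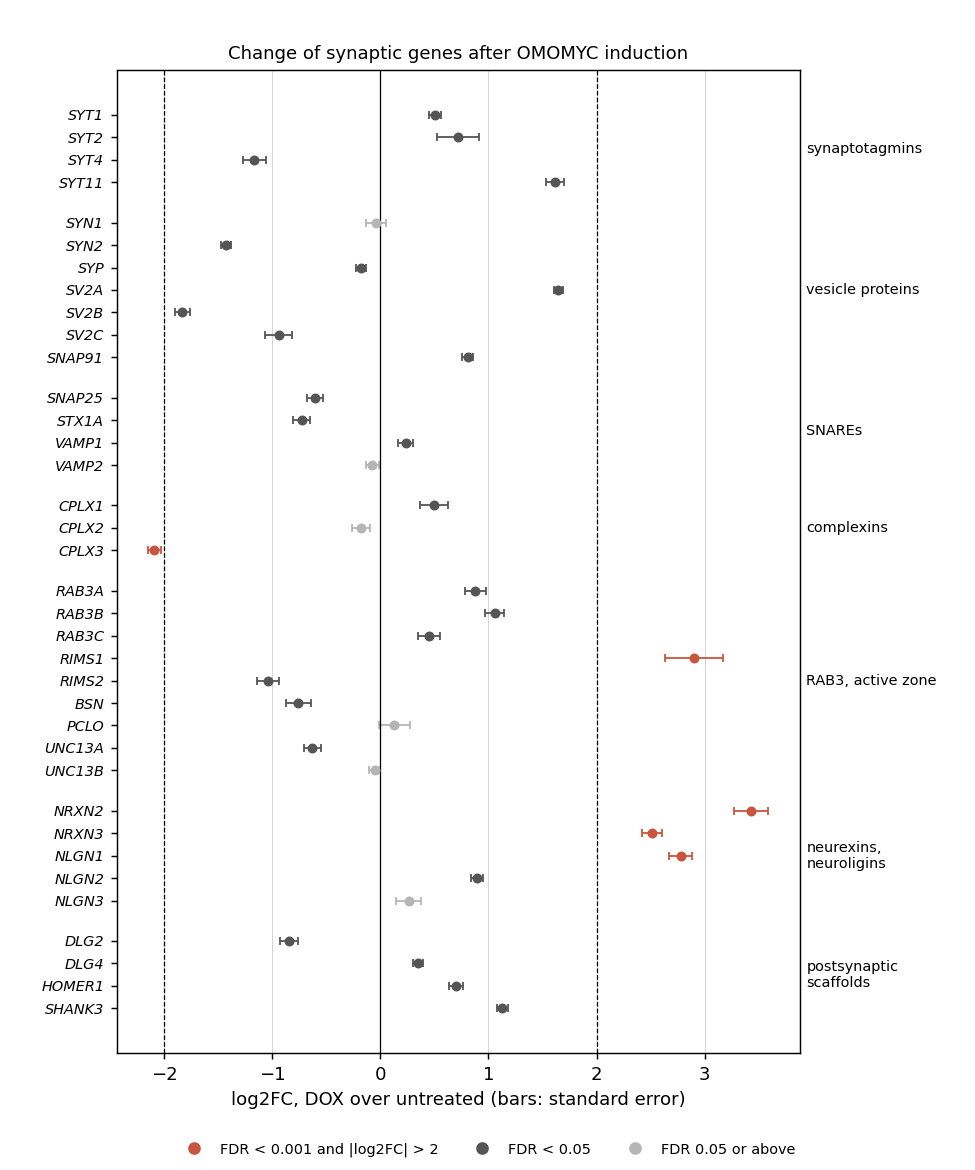
log2FC of DOX-treated over untreated cells for the 36 tested genes by role, with bars for the standard error of the fit and dashed lines at the fold threshold. Red points, past the thresholds for differential expression, are NRXN2, NRXN3, NLGN1 and RIMS1 on the right and CPLX3 on the left, and grey points are the 6 genes at an FDR of 0.05 or above.

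Active zone and RAB3 genes moved in both directions, and 1 of the 9 was differentially expressed. RIMS1 (ENSG00000079841.18), the RIM protein that binds RAB3 on the vesicle and Munc13 at the membrane, lies on the plus strand of chromosome 6 from 71886703 to 72403143. It measured 0.449, 0.252, 0.122 and 0.471 CPM in untreated and 2.94, 2.04, 2.27 and 2.36 CPM in DOX-treated libraries. The groups did not overlap, and the untreated values rest on 22, 13, 6 and 21 counts, with the lowest in replicate 3. The log2FC was 2.90 (SE 0.27, FDR 1.23e-06 in edgeR's quasi-likelihood test), and 2.63 without untreated replicate 3. Its paralog RIMS2 fell from 8.43 ± 1.05 to 4.10 ± 0.200 CPM (log2FC -1.04, SE 0.10). Per kilobase, RIMS1 made up 3.76 ± 1.56% of the level of RIMS1 and RIMS2 together in untreated cells and 38.3 ± 3.84% in DOX-treated cells, while the summed level went from 0.644 to 0.489 CPM per kb. RIMS2 was the larger share in all 8 libraries. The other family members are not in this sum, among them RIMS3, named after its values were seen, at 74.9 ± 5.14 and 91.2 ± 8.99 CPM (log2FC 0.28).

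RAB3A, RAB3B and RAB3C, small GTPases of the vesicle surface, each rose at an FDR below 0.05. RAB3A went from 8.19 ± 1.10 to 15.1 ± 1.54 CPM (log2FC 0.88), RAB3B from 6.099 ± 0.671 to 12.7 ± 0.994 CPM (log2FC 1.06) and RAB3C from 2.36 ± 0.208 to 3.22 ± 0.218 CPM (log2FC 0.45). RAB3A shares 9.08% of its exonic bases with MPV17L2 on the opposite strand, which also rose (log2FC 1.0), and whether counting used strand is not stated in the sources used here. RAB3D, a member of the family that is not among the 42 genes and is named after its values were seen, went the other way, from 65.2 ± 3.70 to 33.4 ± 1.504 CPM (log2FC -0.97).

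Among the scaffolds and priming factors, BSN, which encodes the giant active zone protein Bassoon, fell from 33.0 ± 5.89 to 19.5 ± 1.10 CPM (log2FC -0.76) and UNC13A, a Munc13 priming factor, from 37.8 ± 4.20 to 24.4 ± 1.70 CPM (log2FC -0.63). PCLO, which encodes Piccolo, measured 9.95 ± 2.13 and 10.9 ± 1.16 CPM and UNC13B, another Munc13, 140 ± 8.17 and 135 ± 4.11 CPM. Neither was called (log2FC 0.13 with SE 0.14 and -0.05 with SE 0.05), and their groups overlapped. The sign of PCLO turned to -0.02 without untreated replicate 3, and that of UNC13B to 0.07 with library size alone as the scale. UNC13A made up 30.05 ± 1.22% of the level of UNC13A and UNC13B together per kilobase before and 22.4 ± 1.04% after DOX, a sum that leaves out UNC13D, which was named after its values were seen (5.15 ± 0.524 and 7.67 ± 0.795 CPM).

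Complexins were dominated by CPLX3 in untreated cells, and CPLX3 was the only one of the 36 genes to pass the thresholds downward. CPLX3 (ENSG00000213578.6), a complexin of photoreceptor and bipolar cell ribbon synapses, lies on the plus strand of chromosome 15 from 74826547 to 74831802. The untreated libraries gave 104, 96.2, 110 and 99.9 CPM and the DOX-treated libraries 23.4, 25.9, 22.4 and 24.5 CPM. All DOX-treated values lay below the lowest untreated one, and the mean level was 0.235 times that of untreated cells. The log2FC was -2.09 (SE 0.06, FDR 4.66e-11 in edgeR's quasi-likelihood test), close to the fold threshold, and it was -1.96 with library size alone as the scale, which leaves CPLX3 below that threshold. CPLX3 shares 99.7% of its exonic bases with AC091230.1 on the same strand, its counts are not whole numbers in any of the 8 libraries, and the division of reads between these genes is uncertain. AC091230.1 itself went from 7.29 ± 0.775 to 1.51 ± 0.236 CPM (log2FC -2.28), and with the counts of both added the log2FC was -2.10.

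The promoters of the genes were searched for CACGTG, the E-box bound by MYC and MAX, which reads the same on both strands and overlaps no other motif searched. RefSeq (GRCh38.p14) windows from 250 bases before to 50 after the start were found for 34 of the 42 genes, 62 windows in all, and CPLX1, NRXN2, RIMS2, SHANK1, SHANK2, SNAP25, SYN3 and SYT7 had none. The motif stood in windows of 2 genes, CPLX3 and UNC13A, which is 5.88% of 34, against 8.77% of the 27305 genes with a window. That share covers genes whether or not they were expressed here. Both CPLX3 and UNC13A were lower after DOX. Only 10655 of the 15222 tested genes had a window, and 12.7% of these held the motif. The share was 13.6% among genes lower and 11.4% among genes higher at an FDR below 0.05. A link between the motif and the direction of change was not tested. The window of CPLX3 held it at 2 places, and 0.791% of all genes with a window held it 2 or more times in 1 window. These stretches are shown because CPLX3 is the gene with the largest fall, with the motif in capitals and each read 5′ to 3′ on the strand of the gene, at chr15:74826436-74826465 (plus strand, motif beginning 179 bases before the start), chr15:74826466-74826495 (plus strand, 149 bases before) and chr19:17688561-17688590 (minus strand, 224 bases before).
CPLX3, farther from the start: cgttgaaggaggCACGTGggggaggcggga
CPLX3, nearer to the start: gtggggagcgggCACGTGgtccagccttct
UNC13A: gggtggcgggggCACGTGcaccatttcagt
A match is a description of these letters, and occupancy of these places was not measured here.

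The other complexins were expressed far less. CPLX1, the main complexin of many brain synapses, rose from 1.72 ± 0.205 to 2.42 ± 0.302 CPM (log2FC 0.50), and CPLX2, its close relative, measured 8.26 ± 0.979 and 7.29 ± 0.0918 CPM (log2FC -0.18, FDR 0.0743 in edgeR's quasi-likelihood test) with groups that did not overlap. CPLX4, the other complexin of retinal ribbon synapses, was below the filter, with 5, 2, 0 and 0 counts in untreated and 33, 42, 50 and 43 counts in DOX-treated libraries. CPLX4 therefore went in the opposite direction to CPLX3. Tested without a filter on low counts, CPLX4 had an FDR of 4.34e-10 in edgeR's quasi-likelihood test, where 41.3% of 36881 genes were below 0.05 and 5.69% passed both thresholds. Per kilobase, CPLX3 made up 96.3 ± 0.379% of the complexin level in untreated and 83.5 ± 1.15% in DOX-treated cells, CPLX1 1.39 ± 0.158% and 7.25 ± 1.04%, and CPLX2 2.28 ± 0.264% and 7.43 ± 0.427%, while CPLX4, at 5 counts or fewer in untreated libraries, reached 1.84 ± 0.342% after DOX. The summed level went from 51.1 to 13.8 CPM per kb, and CPLX3 stayed the most abundant complexin in every library.

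**Figure D3:**
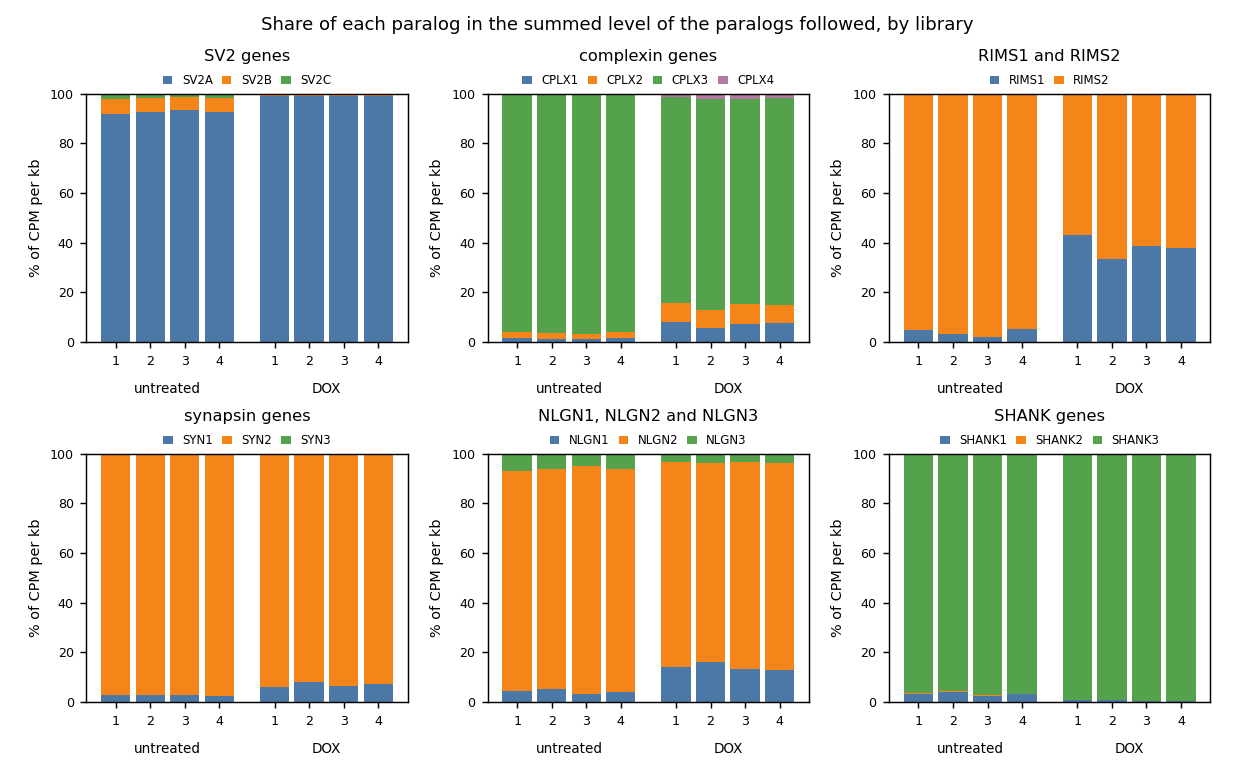
Share of each paralog (% of CPM per kb of exon) in the summed level of the paralogs followed, 1 bar for each library, with untreated replicates on the left of each panel and DOX-treated ones on the right. The RIMS1 share of RIMS1 and RIMS2 lies between 1.79% and 5.07% in untreated and between 33.5% and 42.9% in DOX-treated libraries, and CPLX3 and SV2A remain the largest part of the complexins and SV2 genes.

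Of the SNAREs, which carry out membrane fusion, SNAP25 fell from 9.82 ± 0.738 to 6.45 ± 0.287 CPM (log2FC -0.60) and STX1A, syntaxin 1A, from 12.6 ± 0.870 to 7.59 ± 0.662 CPM (log2FC -0.73). Both belong to the plasma membrane side of the complex. VAMP1, a vesicle SNARE, went from 10.5 ± 0.654 to 12.3 ± 0.876 CPM (log2FC 0.23), and VAMP2, the main vesicle SNARE of the forebrain, measured 62.7 ± 5.68 and 59.6 ± 1.80 CPM. The VAMP2 groups overlapped and it was not called (log2FC -0.07, SE 0.06, and 0.05 with library size alone as the scale). STX1A shares 17.9% of its exonic bases with BUD23 and VAMP1 9.47% with TAPBPL, both on the opposite strand, with log2FC of 0.04 and 0.55 for these neighbours. VAMP2 shares 13.2% with AC129492.3 on the same strand.

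Synaptic vesicle proteins changed in opposite directions within families. SV2A, the vesicle glycoprotein bound by the drug levetiracetam, measured 182, 189, 186 and 190 CPM in untreated and 582, 564, 598 and 592 CPM in DOX-treated libraries. The groups were widely separated, and the log2FC of 1.64 (SE 0.04) was below the fold threshold. SV2B fell from 29.6 ± 2.05 to 8.31 ± 0.501 CPM (log2FC -1.83, SE 0.07) and SV2C, a receptor of botulinum toxin A, from 8.997 ± 1.58 to 4.67 ± 0.440 CPM (log2FC -0.94, SE 0.13). Per kilobase, the SV2 level went from 41.9 to 122 CPM per kb, SV2A rose in share from 92.5 ± 0.679% to 99.1 ± 0.0715%, and SV2B went from 5.67 ± 0.365% to 0.547 ± 0.0471%. SV2A thus became nearly the sole SV2 transcript.

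Synapsins, which tether vesicles in the reserve pool, were represented mainly by SYN2. SYN2 measured 219, 232, 230 and 223 CPM in untreated and 85.7, 78.9, 85.6 and 84.4 CPM in DOX-treated libraries. No library of one group came near the other, with a log2FC of -1.43 (SE 0.05). SYN1 stood at 4.29 ± 0.208 and 4.19 ± 0.393 CPM and was not called (log2FC -0.04, SE 0.09), and its sign depended on the scale (0.09 with library size alone). SYN3 was below the filter, with 1, 9, 2 and 5 counts in untreated and 25, 16, 21 and 21 counts in DOX-treated libraries, which did not overlap (FDR 2.14e-05 in edgeR's quasi-likelihood test with no filter). Together the synapsins went from 40.9 to 15.9 CPM per kb, and SYN2 made up 97.2 ± 0.144% of them before and 92.6 ± 0.801% after DOX.

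Of the other vesicle proteins, SYP, or synaptophysin, a major protein of the vesicle membrane, stood at 55.4 ± 1.30 and 49.0 ± 2.32 CPM (log2FC -0.18, SE 0.05, FDR 0.00426 in edgeR's quasi-likelihood test). With library size alone as the scale, the log2FC of SYP was -0.05 and it was not called. SNAP91, or AP180, the clathrin adaptor that helps retrieve vesicles, rose from 14.3 ± 0.648 to 24.97 ± 0.840 CPM (log2FC 0.81).

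The 6 synaptotagmins followed were represented mainly by SYT1, the calcium sensor of fast release. It measured 197, 199, 174 and 197 CPM in untreated and 273, 286, 269 and 261 CPM in DOX-treated libraries. All DOX-treated values were above the untreated ones, with a log2FC of 0.51 (SE 0.05). SYT1 made up 94.2 ± 0.397% of the summed level of the 6 per kilobase before and 95.4 ± 0.323% after DOX. Other synaptotagmins are not in this sum, of which SYT17, named after its values were seen, had the highest CPM, 17.5 ± 1.03 and 14.1 ± 0.667 CPM. SYT11, which does not bind calcium, rose from 1.84 ± 0.0547 to 5.65 ± 0.216 CPM (log2FC 1.62, SE 0.08), and SYT4, its closest relative among the genes followed, fell from 5.11 ± 0.274 to 2.28 ± 0.299 CPM (log2FC -1.17, SE 0.11). These relatives therefore moved in opposite directions, and neither reached the fold threshold.

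SYT2, a fast calcium sensor of hindbrain synapses, measured 0.964 ± 0.0889 and 1.58 ± 0.425 CPM (log2FC 0.72, SE 0.20). It shares 27.2% of its exonic bases with PPP1R12B on the opposite strand, which was at 33.3 ± 5.05 and 50.4 ± 5.11 CPM (log2FC 0.60), and its counts are not whole numbers in any library, so its level is uncertain. SYT5 and SYT7, the latter a sensor of slower release, were below the filter, with 7 to 12 and 9 to 17 counts for SYT5 and 36 to 49 and 31 to 48 counts for SYT7 in untreated and DOX-treated libraries. The groups overlapped for both, and without a filter on low counts their log2FC were 0.72 (SE 0.34, FDR 0.0912 in edgeR's quasi-likelihood test) and -0.05 (SE 0.20).

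Postsynaptic scaffold genes rose in 3 of the 4 that were tested, none past the fold threshold. SHANK3, a scaffold of the postsynaptic density, measured 8.98, 9.11, 9.09 and 9.84 CPM in untreated and 21.0, 19.3, 20.3 and 20.4 CPM in DOX-treated libraries. The groups were well apart (log2FC 1.13, SE 0.05). HOMER1, which links glutamate receptors to SHANK, went from 17.3 ± 1.41 to 28.1 ± 1.36 CPM (log2FC 0.70) and DLG4, or PSD-95, from 26.1 ± 1.03 to 33.2 ± 1.18 CPM (log2FC 0.35). DLG2, or PSD-93, a close relative of DLG4, fell from 14.6 ± 1.49 to 8.13 ± 0.513 CPM (log2FC -0.84). Both SHANK paralogs were below the filter. SHANK1 had 15, 21, 12 and 14 counts in untreated and 8, 6, 6 and 3 in DOX-treated libraries, without overlap (FDR 0.00279 in edgeR's quasi-likelihood test with no filter), and SHANK2 had 1 to 3 and 1 to 4 counts, too few for a fold. SHANK3 made up 96.6 ± 0.676% of the SHANK level per kilobase before and 99.3 ± 0.174% after DOX.

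Compared with each other per kilobase of exon, the 42 genes were led by CPLX3 (49.2 ± 2.77 CPM per kb), SYN2 (39.7 ± 1.07) and SV2A (38.7 ± 0.780) in untreated cells, followed by SYT1 (29.5 ± 1.81) and VAMP2 (19.2 ± 1.74). By this length the difference between SYN2 and SV2A was within their spread, while CPLX3 lay above both and stood at percentile 95.4 of all tested genes. In DOX-treated cells the order was SV2A (121 ± 3.15), SYT1 (41.9 ± 1.60), NLGN2 (18.5 ± 1.30), VAMP2 (18.2 ± 0.550), SYN2 (14.7 ± 0.570) and CPLX3 (11.6 ± 0.712). NLGN2 and VAMP2 did not differ beyond their spread there. Per kilobase of exon, CPLX3 went from rank 1 to rank 6 of the 42 genes, and SV2A from rank 3 to rank 1, at percentile 98.6 of all tested genes. The order depends on the length used. By longest transcript, SYN2 made up 97.8% of 59.7 CPM per kb of synapsins in untreated cells. CPLX3 made up 95.2% of 51.7 CPM per kb of complexins there, so SYN2 stood above CPLX3. SYP also stood above CPLX3 by longest transcript after DOX. The genes with the largest log2FC remained low, with NRXN2 at percentile 9.05, NRXN3 at 17.1 and RIMS1 at 2.10 in DOX-treated cells, and NLGN1 at 39.7.

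Further genes of the synapse were counted in lists written from general knowledge. Their counts stand beside shares over all genes tested of 4.38% differentially expressed upward and 2.75% downward, 38.5% higher and 38.1% lower at an FDR below 0.05, and a median log2FC of 0.01. Of 60 other trans-synaptic organizers, which form adhesion complexes across the cleft, 44 were tested and 12 were differentially expressed, 9 upward and 3 downward, with 27 higher and 13 lower at an FDR below 0.05 and a median log2FC of 0.80. The largest rises were LRRTM1, a leucine-rich ligand of neurexins, from at most 1 count in any untreated library to 52.8 ± 2.51 CPM, at least 854-fold higher against the floor of 3 counts per library, and NPTX2, a secreted pentraxin that gathers AMPA receptors, from 0.264 ± 0.0933 to 305 ± 23.1 CPM (log2FC 10.17). The falls were CADM3, a SynCAM-type adhesion protein, from 143 ± 3.29 to 21.7 ± 0.487 CPM (log2FC -2.72), MDGA1, which binds neuroligins and hinders their contact with neurexins, from 15.2 ± 1.56 to 2.40 ± 0.377 CPM (log2FC -2.66), and, named after its values were seen, CLSTN2 (log2FC -2.54). LRRTM1 was not detectable above the floor in any untreated library, and both LRRTM1 and NPTX2 entered the test through the DOX-treated libraries alone.

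The other lists held few such genes. Of 47 tested genes of 59 in release machinery and active zone, 1 was differentially expressed, CADPS2, a priming factor of dense-core vesicles, which went from 0.919 ± 0.126 to 18.7 ± 0.783 CPM (log2FC 4.34), and 25 rose and 15 fell at an FDR below 0.05 (median log2FC 0.17). Vesicle endocytosis had 25 of 26 genes tested, 11 higher and 11 lower (median log2FC -0.03), and 1 differentially expressed, SH3GL3, an endophilin, from 0.419 ± 0.0663 to 8.32 ± 0.677 CPM (log2FC 4.31). Vesicle filling had 7 of 12 genes tested, 6 higher and 1 lower (median log2FC 0.36), the latter the vesicular acetylcholine transporter SLC18A3, from 1.59 ± 0.172 to 0.119 ± 0.0839 CPM (log2FC -3.73), with 1 DOX-treated library at 0. SH3GL3 entered the test through the DOX-treated libraries alone and SLC18A3 through the untreated ones alone. For SH3GL3 a rise and for SLC18A3 a fall was therefore a condition of being counted. Each of these 3 lists thus held 1 gene with a large change among many with small ones.

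Of 29 other postsynaptic scaffold genes 24 were tested, with 13 higher and 6 lower (median log2FC 0.29) and 1 differentially expressed, SIPA1L1, a regulator of dendritic spines, from 4.56 ± 0.359 to 27.7 ± 1.45 CPM (log2FC 2.60). In the list of photoreceptor ribbon synapse genes, 6 of 8 were tested, 0 were differentially expressed with edgeR's quasi-likelihood test or the DESeq2 Wald test, and 5 fell at an FDR below 0.05 (median log2FC -0.54). The 5, named after their values were seen, were CACNA2D4 (log2FC -1.76) and CACNA1F (log2FC -0.70), subunits of the photoreceptor calcium channel, UNC119 (log2FC -1.38), CTBP2 (log2FC -0.31), which encodes the ribbon protein RIBEYE, and STX3 (log2FC -0.38), the syntaxin of ribbon synapses. Counts per gene do not separate RIBEYE from other products of CTBP2, and STX3 is also counted in the release machinery list. LRIT3, named likewise, was not called (log2FC 0.28). OTOF and CABP4, also named likewise, were below the filter, at 0.0369 ± 0.0225 and 0.0303 ± 0.0487 CPM in untreated libraries. In DOX-treated libraries they stood at 0.200 ± 0.0419 and 0.0912 ± 0.0464 CPM. CPLX3 fell along with the 5 genes called lower, and CPLX4 did not.

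**Figure D4:**
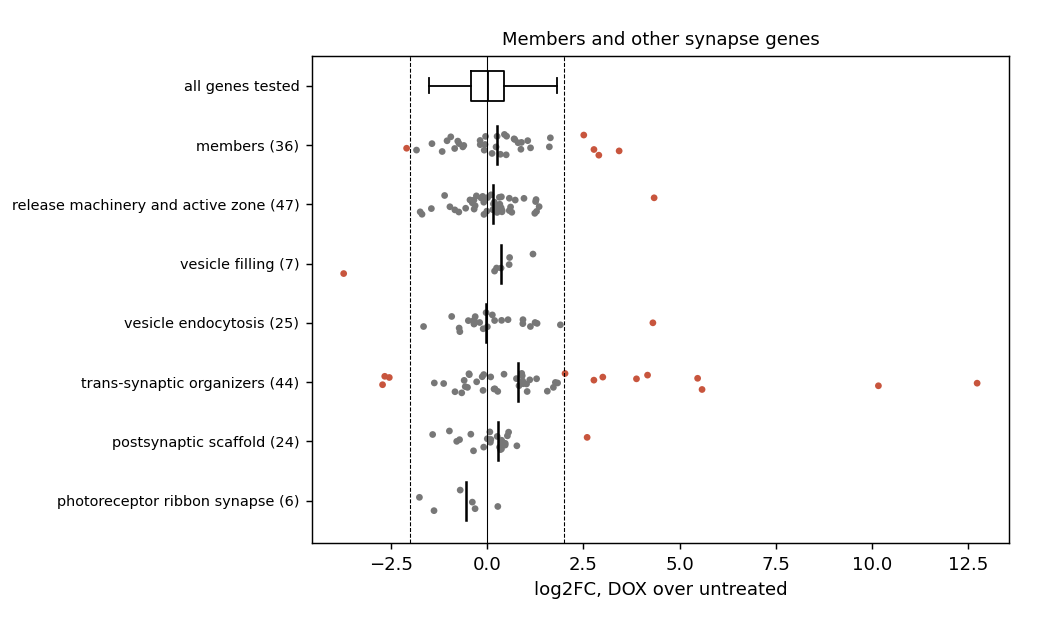
log2FC of each tested gene (points) in the set of 36 and in the lists of other synapse genes, with the number tested in parentheses, vertical bars for the medians, red for genes past the thresholds for differential expression, dashed lines at the fold threshold, and a box for all genes tested (quartiles, with whiskers at the percentiles 5 and 95). The trans-synaptic organizers reach farthest to the right, with a median of 0.80.

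Untreated replicate 3 gave lower levels of long genes than the other untreated libraries. It was the lowest of its group in 18 of the 36 tested genes, against 38.01% of all genes tested. Among the 14 genes with more than 10 kb of exons it was the lowest in 12, and among the 22 shorter ones in 6. Its median log2 ratio to the mean of the other untreated replicates (after adding 0.1 CPM) was -0.29 in the longer and -0.01 in the shorter genes, and over all genes tested it was -0.24 in the 1727 longer ones and 0.03 in the rest. RIMS1, PCLO, BSN and SV2C lay farthest below the other replicates. Without this library each of the 5 differentially expressed genes still passed both thresholds, with log2FC of 3.50 for NRXN2, 2.44 for NRXN3, 2.67 for NLGN1 and -2.06 for CPLX3, while BSN went to -0.89 and CPLX2 to -0.22, with an FDR of 0.0309 in edgeR's quasi-likelihood test.

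**Figure D5:**
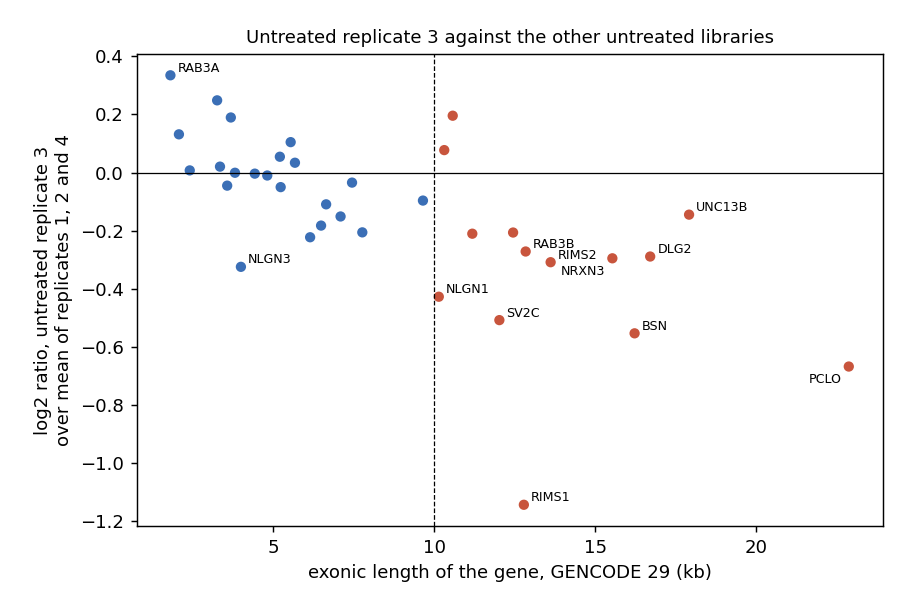
log2 ratio of untreated replicate 3 to the mean of untreated replicates 1, 2 and 4 against exonic length (kb) for the 36 tested genes, red above and blue at or below 10 kb (dashed line). Over these genes Spearman's rho is -0.71, a description of points that share the same 4 libraries, and 12 of the 14 red points lie below 0.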

How the data were processed

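The authors used Trim Galore for trimming, STAR for alignment (GRCh38, GENCODE 32) and RSEM for quantification. Per the files, the authors deposited expected counts for each gene and library, without normalization, from a stranded polyA+ kit, and RSEM had divided reads that match several genes (8849 to 9502 genes per library held a count that is not whole). The division of reads between overlapping genes is therefore part of the values.

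Groups came from the sample titles (4 OMO, 4 OMO+DOX). Expected counts were rounded. Genes above 1 CPM in 4 or more of the 8 libraries were tested with edgeR 4.0.16 and limma 3.58.1 in R 4.3.3 (TMM, quasi-likelihood test, Benjamini-Hochberg adjustment, no covariates), with differential expression taken as an FDR under 0.001 plus a log2FC beyond 2 in either direction. The SE of a log2FC is its size over the square root of the F statistic. CPM are TMM-scaled, means carry the SD of 4 libraries, and levels per kilobase use the union of exons in GENCODE 29, which named 58561 of 60668 identifiers. Tables used Python 3.11.15, numpy 2.4.6, pandas 2.3.3 and scipy 1.17.1. On simulated data with the spread of these libraries, all of 100 genes with an absolute log2FC of 3 and 99 of 100 with 1 were recovered among 15222. These changes were planted only in genes above a minimum mean count, as many up as down. Recovery in genes with lower counts, or with most genes changing, was not simulated.

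The genes, lists and tests were chosen with earlier results of these data known. All 42 genes are named, with values per library and the full test for those past both thresholds, per library for some others, and by group mean for the rest. From each other list up to 2 rises and 2 falls past both thresholds were named, with exceptions stated. Alternatives were other normalizations, filters, an FDR of 0.01, the DESeq2 1.42.0 Wald test, a replicate block, lengths by longest transcript, and each replicate left out. No block was used, because equal replicate numbers are not said to mark a shared culture. Deviations from the group mean had an r of 0.157, 0.144, 0.241 and -0.176 between libraries of equal number. The mean r was 0.091 for equal numbers and -0.033 for other pairs, which does not decide whether cultures were paired. ChIP, protein and tumour data were not analysed here.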

Additional observations from a re-analysis of the deposited data

Results flagged for a closer look

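In 9 of the 72 groups of 4 libraries formed by the 36 tested genes, 1 library lay apart from the other 3 by Dixon's criterion at the 95% level, where chance gives about 1 in 20, or 3.6 groups. In untreated replicate 3, SYT1 was low at 174 CPM (others 197 to 199), SV2B was low at 26.5 CPM (others 30.5 to 30.9), NRXN3 was low at 2.38 CPM (others 2.90 to 3.003) and VAMP2 was high at 71.2 CPM (others 59.0 to 60.4). In untreated replicate 1, VAMP1 was high at 11.4 CPM (others 10.1 to 10.2), and in untreated replicate 4, SHANK3 was high at 9.84 CPM (others 8.98 to 9.11). In DOX-treated replicate 2, the library with the lowest total count, RAB3B was high at 14.2 CPM (others 12.2), UNC13B was low at 129 CPM (others 137 to 138) and NLGN2 was low at 91.9 CPM (others 106 to 107). What set these libraries apart was not tested.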

How the results depend on the processing

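The number of differentially expressed genes among the 36 stayed at 5 with DESeq2's size factors, the DESeq2 Wald test, an FDR of 0.01 and each library left out, was 7 with no filter on low counts (SYN3 and CPLX4 added), 4 with library size alone (without CPLX3 at -1.96), and 3 when over 4 libraries had to exceed 1 CPM, where RIMS1 and NRXN2 were not tested. With that stricter filter, differentially expressed genes numbered 562 of all genes, 0 in vesicle filling, 0 in vesicle endocytosis and 7 among trans-synaptic organizers. With no filter they numbered 2097 of all genes, 2 in release machinery, 2 in vesicle filling and 1 among ribbon synapse genes, and with library size alone 2 in vesicle endocytosis. Library size alone moved the median log2FC of all genes up by 0.13, split all genes at an FDR below 0.05 into 7157 higher and 4715 lower (5868 and 5793 with TMM), and turned the signs of SYN1 (0.0865), VAMP2 (0.0535) and UNC13B (0.0719), none of which was called. Over fits that left out 1 library, SYN1 ranged from -0.0818 to 0.0153, with the sign turned without DOX-treated replicate 1, and PCLO from -0.0170 to 0.208, with the sign turned without untreated replicate 3. Leaving out libraries gave 18 to 19 genes higher and 12 to 13 lower among the 36, and 1072 to 1091 differentially expressed among all. CPLX2 was called without untreated replicate 2 (-0.24) or 3 (-0.22), and NLGN3 without untreated replicate 1 (0.33) or with library size alone (0.39). With the replicate number as a block, 5 of the 36 genes were differentially expressed and 19 rose and 12 fell at an FDR below 0.05, NLGN3 (log2FC 0.26, FDR 0.0453 in edgeR's quasi-likelihood test) being the gene added, and 1085 of all genes were differentially expressed. The numbers are not said to pair cultures. The sum of CPLX3 and AC091230.1 was added after the data were seen. Of the 10 highest levels per kilobase, 10 (untreated) and 9 (DOX-treated) were the same genes by longest transcript. Their order was not the same, with SYN2 above CPLX3 in untreated cells. Levels below 1 CPM in untreated cells limit the fold changes of RIMS1 and NRXN2.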
